A study of Mus musculus with 35 samples.

Results

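The mRNA export and nuclear pore genes are the transcripts that code for the machinery of nuclear export itself. They were chosen by symbol from the GENCODE vM1 annotation of the mouse genome build mm9: protein-coding genes whose symbol starts with Nup, Thoc or Xpo and a number, together with Nxt1, Ncbp1, Ncbp2, Ranbp2, Tpr, Gle1, Rae1, Mcm3ap and Eny2, and without Nxf1. The rule found 42 of 22380 protein-coding genes. They held 156961 of the 17178383 tags that lay in protein-coding genes over 31 libraries.

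The study asked how SR proteins, a family of splicing factors, and NXF1, the receptor that carries bulk mRNA out of the nucleus, occupy RNA in the same cells. It used individual-nucleotide cross-linking and immunoprecipitation (iCLIP), in which RNA is fixed to the bound protein by ultraviolet light before lysis and reverse transcription of the purified RNA stops beside the fixed base. All cells were mouse P19 cells, an embryonal carcinoma line, and the SR protein and NXF1 lines carried the GFP-tagged mouse gene on a bacterial artificial chromosome (BAC). All proteins were purified with an antibody to GFP. The groups were NXF1 with 3 libraries, SRSF1 with 4, SRSF2 with 5, SRSF3 with 3, SRSF4 with 3, SRSF5 with 4, SRSF6 with 3 and SRSF7 with 6, and GFP-NLS, which is GFP with a nuclear localization signal, served as control. All lines kept their own untagged genes, and the BAC lines had been selected with Geneticin and sorted. Per the study's methods the lines were stable clones, so clone and tagged protein cannot be told apart. The 4 control libraries came as 1 summed file and entered no test. The study calls them biological replicates, and the sources used here do not say whether they came from separate cultures, so the p-values cover library-to-library spread that could be purely technical.

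Nuclear pores are rings of nucleoporins set in the nuclear envelope: Y complexes and an inner ring form the scaffold, a basket faces the nucleus, filaments face the cytoplasm, and proteins rich in phenylalanine and glycine (FG) repeats fill the channel. Spliced mRNA is coated by the TREX complex, whose THO subunits and adaptor ALYREF (here under its older symbol Thoc4) hand it to NXF1 and its partner NXT1, and at the cytoplasmic face GLE1 and NUP214 take part in its release. The exportins carry proteins and other RNAs by a separate, Ran-driven route.

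A tag is 1 cDNA listed by the authors at a position that had passed their density threshold in that library, and levels are counts per 1000000 listed tags (CPM). Libraries held 13038 to 4459523 listed tags, the NXF1 libraries 108708 to 237488. A tag was worth 0.224 CPM in the deepest library and 76.7 CPM in the shallowest, so a level of 0 means only that no position was listed there. The headers of the files labelled SRSF2 replicates 2 and 5 name SRSF1, and those libraries held 2605 and 2311 CPM on Srsf5 RNA, against 31.1, 135 and 306 CPM in replicates 1, 3 and 4. They were kept under their labels, and counts of calls are also given without them. The SRSF2, SRSF5 and SRSF6 libraries were all run in 2013 and the SRSF1, SRSF3, SRSF4 and NXF1 libraries all in 2014, so run year and protein cannot be told apart across these 2 sets. All 7 annotated pluripotency markers had tags, with a summed median of 963 CPM over libraries (range 0 to 2875), though Dppa5a had only 3. The endoderm markers Afp and Sox17 had none, while the endoderm marker Gata6 had 10 tags in 5 libraries, with at most 11.1 CPM. Neuron and fibroblast markers summed to at most 27.7 and 30.8 CPM in a library.

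The positions with the most tags lay in a few transcripts. Tagged positions of a gene were joined where they lay within 30 nt, which gave 2281 stretches with a median width of 27 nt, of which 944 were tagged in 1 library only. The 10 windows here show the most-tagged position of stretches that rank among the 3 highest of a protein and were tagged in at least 9 libraries. Each has 30 bases of the mm9 genome on the transcript strand, 5′ to 3′, and the capital marks the listed position.
Tpr with SRSF6, basket, exon 41, chr1:152286285-152286314, plus strand: gaccacttcagtcagAtcaacagactactt
Tpr with SRSF4, basket, stretch over exons 42 and 43, chr1:152287185-152287214, plus strand: atcttcttctaggatTatgaagaagacgaa
Nup153 with SRSF3, basket, exon 18, chr13:46782836-46782865, minus strand: ttcgggacatcttcaTctttaaatccagca
Nup153 with SRSF3, basket, exon 12, chr13:46796979-46797008, minus strand: tcaccagtcagctctTctcagccattacca
Nup62 with SRSF3, central channel, exon 2, chr7:52084013-52084042, plus strand: acctgccactggcttTtccttctctgcttc
Nup88 with SRSF2, cytoplasmic face, stretch over exons 11 to 14, chr11:70758387-70758416, minus strand: gagccacccaggtgtTccgagaacagtaca
Nup85 with SRSF2, Y complex, stretch over exons 10 and 11, chr11:115440166-115440195, plus strand: ggcggcctttgagttCgacattcaccaggt
Nup85 with SRSF5, Y complex, stretch over exons 13 and 14, chr11:115442305-115442334, plus strand: attgagcggattcctCtcaacacagagcag
Xpo1 with SRSF1, exportin, exon 1, 5′ UTR, chr11:23156652-23156681, plus strand: tcctccccaccttccCtcgccccaagcccg
Xpo1 with NXF1, exportin, exon 25, chr11:23196240-23196269, plus strand: tgtgttttttgtataAgaaattttctgtga

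The windows differed in base content. The 7 patterns searched were GGA with the related GAC and the related GAT, the repeat GAAGAA, the pyrimidine pattern CNTC with its longer form TCNTC, and the spaced pair CNNC. They were searched on the transcript strand only, with N for any base and overlapping matches counted, and each match of the longer form holds one of the shorter. All 3 SRSF3 windows held CNTC, with 2 matches in Nup62, 3 in exon 18 of Nup153 and 1 in its exon 12. Of the 7 other windows 4 held it too: 3 matches in the Xpo1 window of SRSF1, 2 in the Tpr window of SRSF4 and 1 each in the Tpr window of SRSF6 and the Nup85 window of SRSF5. The Tpr window of SRSF4 also held GAAGAA once, and the Xpo1 window of NXF1 held none of the 7 patterns. Across the most-tagged position of each tested member, CNTC stood in 75.8% of 33 windows with SRSF3, against 78.8% of 5488 windows in other tested coding genes. With NXF1 it stood in 44.8% of 29 member windows, against 33.3% of 3781 in the others. GGA stood in 39.4% of the member windows with SRSF1, against 51.8% in the others, and in 51.5% with SRSF6, against 47.4%. Such a match describes letters and not a binding site.

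The levels over the 42 members spanned a wide range, with the exportin gene Xpo1 and the basket gene Tpr at the top. Per gene, Xpo1 averaged 427 CPM over the 8 protein means, ahead of Tpr at 336, Nup153 at 222, Nup85 at 211 and Nup210 at 178 CPM. Between genes, levels can be compared only per length, here as exonic CPM per kb of the representative transcript. On that scale Nup85 led with 75.2 CPM per kb, followed by Xpo1 with 61.5, Tpr with 40.6, Nup88 with 40.4 and Nup153 with 32.4 CPM per kb. In a library the leading member held 11.9% to 40.6% of the member tags, and 7 to 42 members had any tag.

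**Figure D1:**
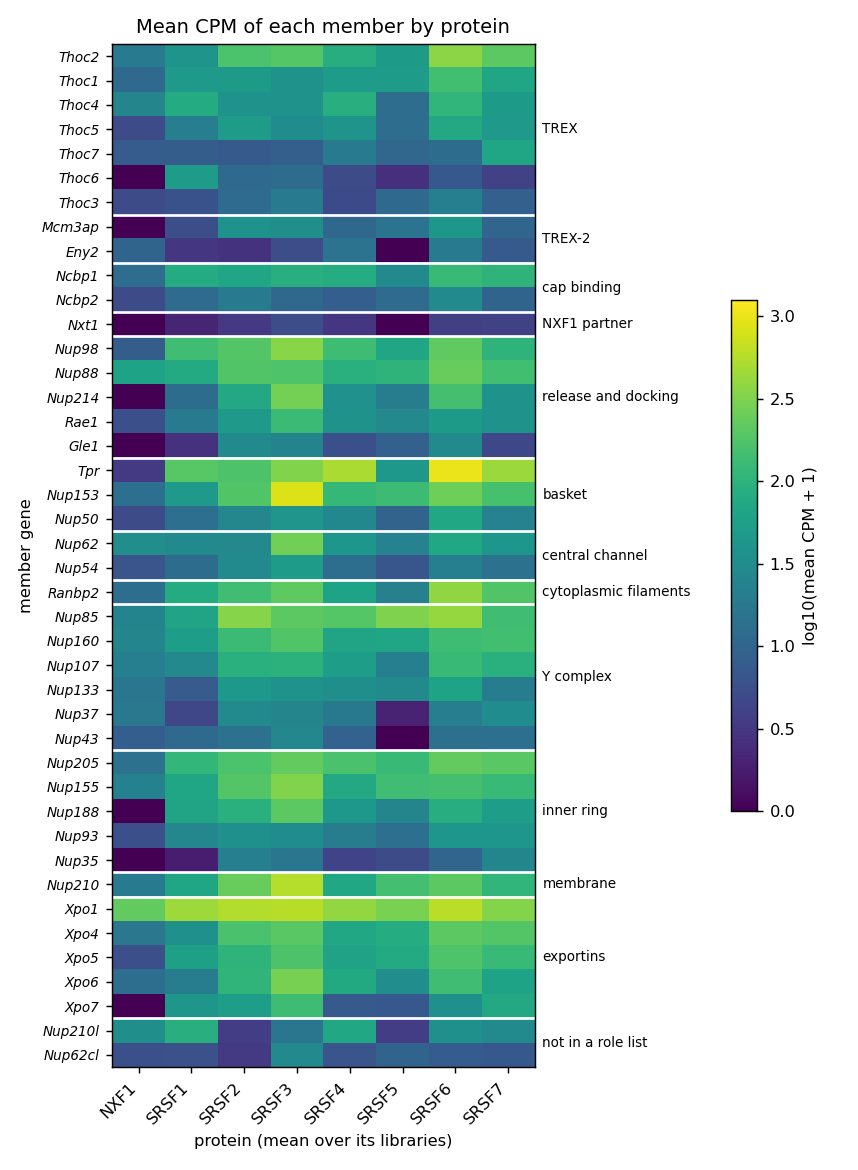
Mean CPM of each of the 42 members (rows, grouped by role) for each protein (columns, mean over its libraries), on a colour scale of log10(mean CPM + 1). Tpr is brightest with SRSF6 (1018 CPM) and dark with NXF1 (2.37 CPM), Nup153 is brightest with SRSF3 (873 CPM), and Xpo1 is bright in every column.

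The members that package mRNA are given first. THOC2 is the large scaffold subunit of THO, and its gene (chrX:39148168-39273851) had 320.3, 342 and 428 CPM with SRSF6 and 21.1, 14.2 and 18.4 CPM with NXF1. Thoc4 (chr11:120453435-120459679) codes for the adaptor that binds NXF1 and had a 3′ UTR stretch tagged in 19 libraries, with 0 to 111 CPM with SRSF1 and 0 to 71.8 CPM with SRSF4. Highest levels are given here over the 14 SR protein libraries of at least 400000 tags, since a few tags give a high CPM in a shallow one. Of the other THO genes, this highest level was 184 CPM for Thoc1, 31.4 for Thoc3, 86 for Thoc5, 20.9 for Thoc6 and 118 for Thoc7. The TREX-2 genes Mcm3ap (its scaffold) and Eny2 reached 67.5 and 25.1 CPM. The cap-binding genes Ncbp1 and Ncbp2 reached 197 and 42.5 CPM. Nxt1, the partner of NXF1, had 146 tags in 10 libraries, reached 13.5 CPM, and had none with NXF1.

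The pore genes and exportins follow by role. Of the release and docking genes, Nup98 reached 447 CPM, Nup88 384, Nup214 333, Rae1 137 and Gle1 37.2 CPM in a deep library. In the scaffold, the Y complex gene Nup85 reached 759 CPM, Nup160 272, Nup107 164, Nup133 112, Nup37 49 and Nup43 37.6 CPM, and the inner ring genes Nup205, Nup155, Nup188, Nup93 and Nup35 reached 419, 364, 224, 124 and 24.4 CPM. Ranbp2, the large filament protein, reached 465 CPM, the membrane nucleoporin gene Nup210 640.1 and the channel genes Nup62 and Nup54 305 and 59 CPM. Nup62cl, a paralog of Nup62, reached 33.9 CPM. The exportin genes Xpo4, Xpo5, Xpo6 and Xpo7 reached 317, 249, 312 and 173 CPM. In all, 33 members passed the minimum level for testing, and Ncbp2, Gle1, Nup43, Thoc6, Thoc3, Nup35, Nup62cl, Eny2 and Nxt1 did not.

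The level of the whole set moved with library depth. Members together reached 1120.1, 669.7 and 312.8 CPM in the NXF1 libraries, against 369 to 8589.9 CPM in the 28 SR protein libraries, with a median of 2376. The 14 SR protein libraries with at least 400000 listed tags held 2393 to 8589.9 CPM. The 8 with 50000 to 250000 tags, the range that holds the NXF1 libraries, had 369 to 2152 CPM with a median of 1192. The NXF1 values overlapped theirs in part. All 3 lay under that median, and NXF1 replicate 3, at 312.8 CPM, lay under the whole range. Members took 0.177% to 0.401% of the coding-gene tags with NXF1 and 0.216% to 1.07% with SR proteins. The part of depth in the differences given next was not tested beyond the fits at matched depth and in deep libraries. In the summed control file 4 members had tags, 11 of 21880 listed. There were 3 in introns of Nup153, 2 each in introns of Thoc2 and Nup188, and 2 each in an intron and the 3′ UTR of Xpo7. These 11 tags came to 503 CPM, above NXF1 replicate 3 at 312.8 CPM.

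**Figure D2:**
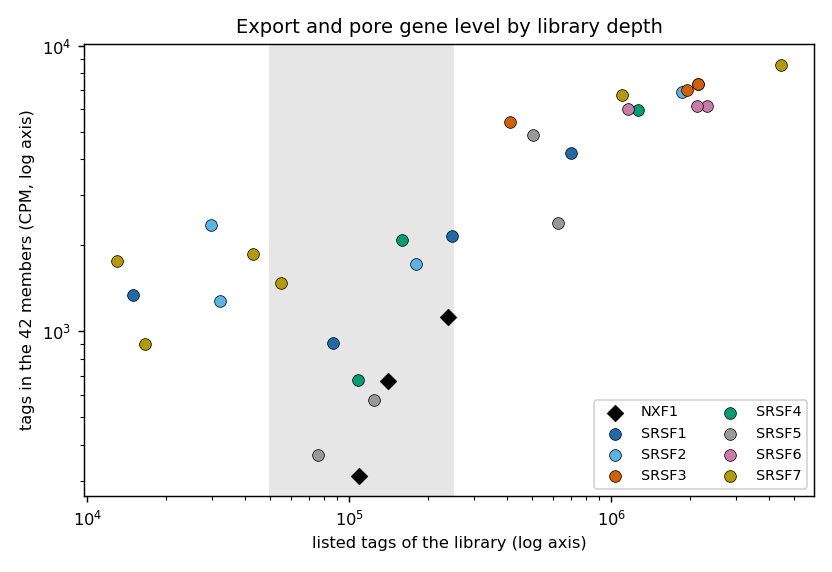
Summed level of the 42 members (CPM, log axis) against listed tags (log axis), 1 point per library, with the grey band at 50000 to 250000 tags. The 14 SR protein libraries above 400000 tags hold at least 2393 CPM. The NXF1 libraries hold 312.8 to 1120.1 CPM, against 369 to 2152 CPM in SR protein libraries of like depth. NXF1 replicate 3 lies below them all.

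The first comparison asked which members NXF1 occupied more or less than the 7 SR proteins did. Xpo1 was the member with the most NXF1 tags, and Tpr, tagged with all 7 SR proteins, had almost none with NXF1. Of 33 members tested, limma called none at an adjusted p under 0.05, where 2.79% of all 6030 genes tested were higher with NXF1 and 2.37% lower. At an unadjusted p under 0.05, 16 members were lower with NXF1 and 0 higher, and limma-trend, the other tool, called 0. The median log2 difference, NXF1 minus the mean of the SR proteins, was -2.29 over the members and -1.86 over all genes tested.

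Tpr had 0, 7.12 and 0 CPM in the NXF1 libraries, against 0 to 1222 CPM (median 232) in the SR protein libraries. The groups overlapped, since some shallow SR protein libraries also listed no Tpr tag, and the log2 difference was -5.36 ± 1.83, adjusted p = 0.0684 (SE, limma). Against the 8 SR protein libraries of matched depth, a fit added after seeing the data, Tpr fell (log2 difference -3.30 ± 0.74, adjusted p = 0.000289) and was the 1 member of 33 called, where 11.6% of 5940 genes were lower with NXF1 and 4.55% higher. Those 8 libraries had 0 to 508 CPM (median 66.7) on Tpr with 2 at 0, and they hold no SRSF3 or SRSF6 library.

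Nup98, which codes for an FG nucleoporin that binds RAE1, had 0, 21.4 and 0 CPM with NXF1, against 0 to 447 CPM (median 151) with SR proteins (log2 difference -4.32 ± 1.59, adjusted p = 0.0816). Nup88, a partner of NUP214, had 118, 49.9 and 18.4 CPM with NXF1, against 0 to 384 CPM (median 122) with SR proteins (log2 difference -0.69 ± 0.98, adjusted p = 0.561). At matched depth the SR protein libraries had 0 to 122 CPM (median 18.3) on Nup88, so that NXF1 lay within their range. Xpo1 had 455, 207 and 9.2 CPM with NXF1, against 0 to 934 CPM (median 553) with SR proteins (log2 difference -1.65 ± 0.96, adjusted p = 0.174), again overlapping. Among the libraries run in 2014, which hold no SRSF2, SRSF5 or SRSF6, none of 33 members was higher with NXF1, where 3.5% of 6028 genes were, and 10 were lower, where 15.3% were: Tpr, Nup153, Nup98, Rae1, Nup188, Nup205, Ncbp1, Xpo5, Xpo6 and Xpo7. In that fit the log2 difference was -6.09 ± 1.38, adjusted p = 0.00804 for Tpr and -4.97 ± 1.13, adjusted p = 0.00800 for Nup98.

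By transcript part, NXF1 tags on members lay more in the 3′ UTR. It held 20.6% to 33% of the member tags in the 3 NXF1 libraries, against 0 to 17.3% with a median of 7.47% in the 28 SR protein libraries, with no overlap. In the 8 SR protein libraries of matched depth the share was 5.48 to 17.3%. The other coding genes had the same order, with 24.7 ± 2.32% in the 3′ UTR with NXF1 and 11.1 ± 3.82% with SR proteins (SD, n = 3 and 28). In members the coding sequence (CDS) held 50.6 ± 5.62% of the tags with NXF1 and 66.8 ± 18.8% with SR proteins, beside 24.7 ± 5.13% and 44.4 ± 16.9% in other coding genes. Introns held 12.6 ± 15.2% of member tags with NXF1 and 17.4 ± 18.2% with SR proteins, beside 37.1 ± 5.91% and 31.5 ± 17.4%. These shares were not tested, and those of members with NXF1 rest on few tags. Only 26, 20 and 14 members had any tag in the 3 NXF1 libraries. Xpo1 alone held 40.6% and 30.9% of the member tags in NXF1 replicates 1 and 2.

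**Figure D3:**
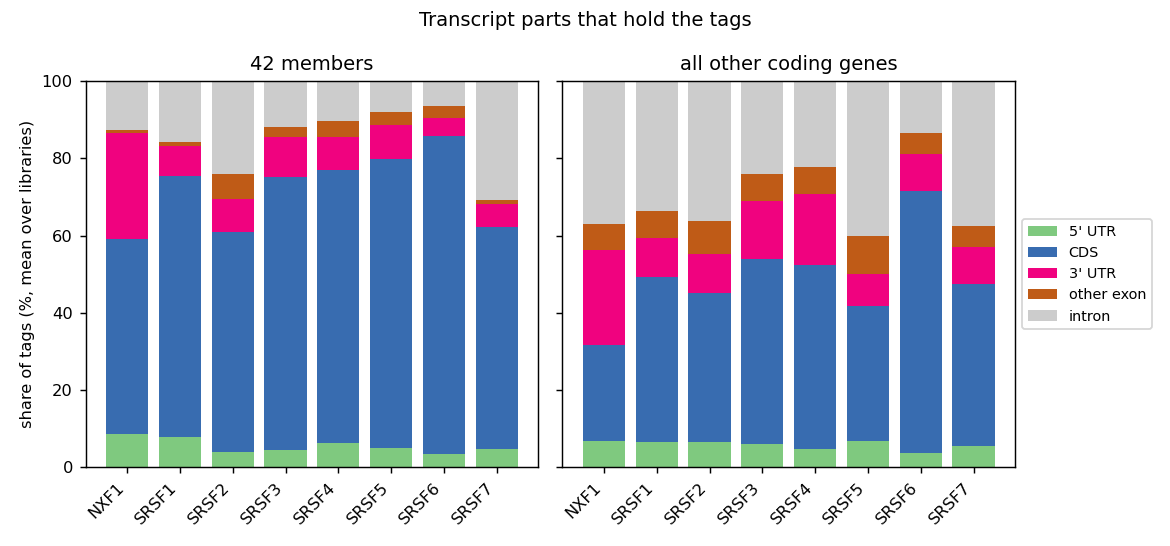
Share of tags in each transcript part (%, mean over the libraries of a protein), for the 42 members and for all other coding genes. The 3′ UTR share of members is 27.4% with NXF1 and 4.81% to 10.2% with the SR proteins, and the CDS holds more than 50% of member tags with each protein.

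Nup62 (chr7:52071458-52086179) is given as 1 example by part, though neither its CDS nor its 3′ UTR was called between NXF1 and the SR proteins. NUP62 is the FG nucleoporin of the central channel. With NXF1 the gene had 21.1, 78.4 and 0 CPM, and its CDS had 0, 0 and 0 CPM, where SRSF3 had 235, 175 and 218 CPM in the CDS. The NXF1 levels rest on few tags, since those libraries held 108708 to 237488 listed tags, against 409282 to 2152709 with SRSF3. The NXF1 tags lay in a stretch at chr7:52085260-52086154, mostly 3′ UTR. By part, 57 member parts were tested and limma called none between NXF1 and the SR proteins, where 2.06% of 7275 parts were higher with NXF1 and 0.344% lower. At an unadjusted p under 0.05, 15 member parts were lower and none higher, and limma-trend called 0. The log2 difference of Nup62 was -3.08 ± 1.38, adjusted p = 0.154 in the CDS and 0.35 ± 0.75, adjusted p = 0.730 in the 3′ UTR. At matched depth the CDS of Tpr (-3.17 ± 0.71, adjusted p = 0.000236) and of Xpo5 (-2.64 ± 0.73, adjusted p = 0.00409) fell, 2 of the 52 member parts tested there, where 12.8% of 6888 parts did and 4.98% rose.

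**Figure D4:**
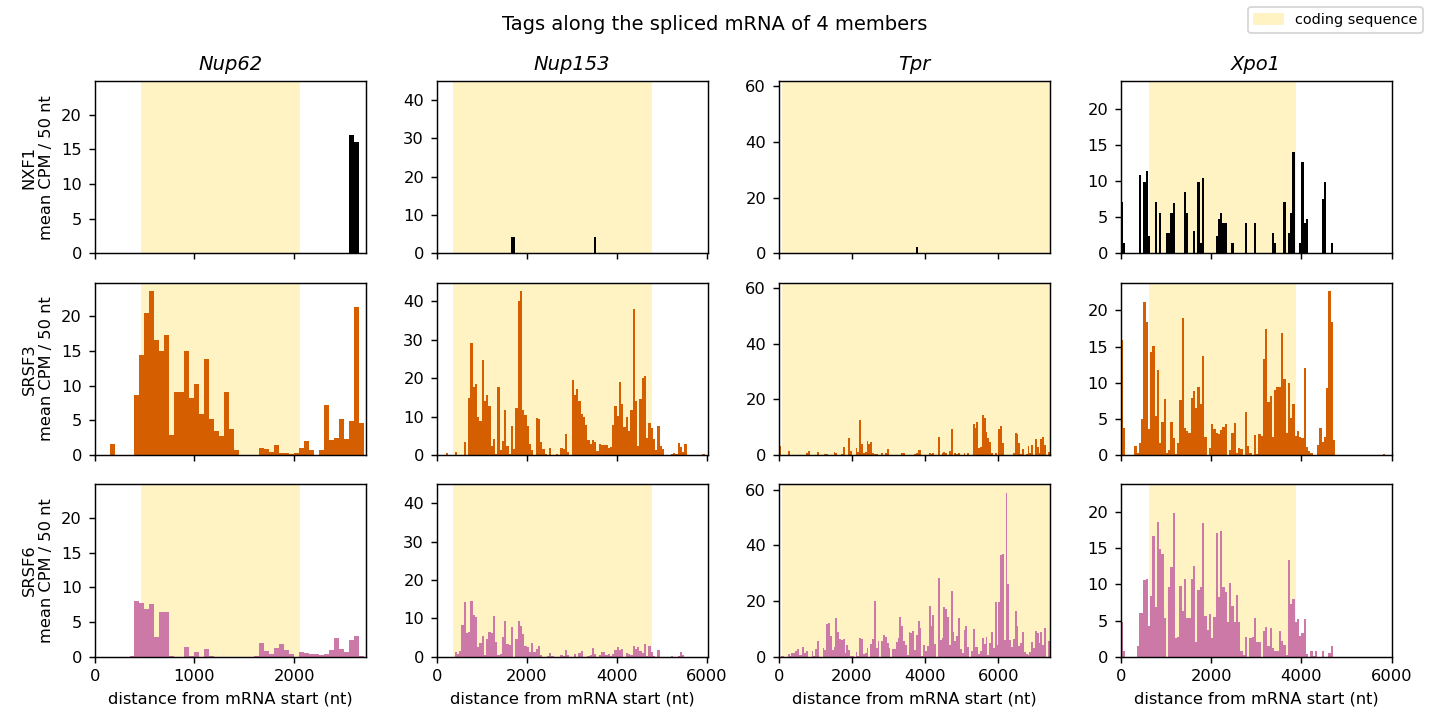
Mean CPM per 50 nt (y axis) along the spliced mRNA of 4 members (x axis, distance from the start of the mRNA in nt) for NXF1, SRSF3 and SRSF6. On Nup62 the NXF1 tags lie toward the 3′ end and most SRSF3 tags in the CDS, and on Tpr the SRSF6 tags are spread over the CDS where NXF1 has next to none.

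The second comparison took the SR proteins 1 by 1, each minus the mean of the remaining 6. With SRSF3, the nucleoporin genes Nup153, Nup62 and Nup214 and the exportin gene Xpo7 rose. These 4 of 33 members stand beside 8.54% of all genes higher with SRSF3, and 0 members beside 2.29% lower, a share of calls close to the background. The median log2 difference was 1.32 over the members and 0.80 over all genes.

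Nup153 (chr13:46775271-46823218), whose protein sits in the basket, had 869.8, 915 and 834 CPM in the SRSF3 libraries, against 0 to 550.1 CPM (median 75.3) in the 25 libraries of the other 6 proteins. All 3 SRSF3 libraries lay above all others, and the log2 difference was 3.41 ± 1.0, adjusted p = 0.0234 (SE, limma). Nup62 had 283, 244 and 305 CPM with SRSF3, against 0 to 128 CPM (median 23.9) with the others (log2 difference 3.17 ± 0.88, adjusted p = 0.0171), also with no overlap. Nup214 (chr2:31829956-31909495), whose protein binds the release helicase at the cytoplasmic face, had 232, 333 and 279.6 CPM with SRSF3, against 0 to 176 CPM (median 11.4) with the others (log2 difference 3.30 ± 0.93, adjusted p = 0.0197), with no overlap. Xpo7 had 78.2, 159.8 and 173 CPM, against 0 to 153 CPM (median 20.7) (log2 difference 2.51 ± 0.72, adjusted p = 0.0211), and here the groups overlapped.

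These calls depended on single libraries and on the method. Those on Nup153, Nup62 and Nup214 were lost without any 1 of the SRSF3 libraries (adjusted p up to 0.137, 0.123 and 0.132) and that on Xpo7 without replicate 2 or 3 (up to 0.170). All 4 were lost with trimmed-mean scaling, with no CPM minimum and with limma-trend, which gave the highest adjusted p over the settings tried (0.253, 0.219, 0.170 and 0.328 in turn). The SRSF3 libraries were all deep, and 8, 10 and 12 of the 25 other libraries listed no tag on Nup153, Nup62 and Nup214. Among the 14 libraries with at least 400000 tags, a fit added after seeing the data, these 4 genes rose again, with log2 differences of 1.74 ± 0.22 for Nup153, 2.0 ± 0.29 for Nup62, 2.12 ± 0.39 for Nup214 and 2.06 ± 0.37 for Xpo7 (SE). Among the libraries run in 2014, Nup153 gave 3.31 ± 0.86, adjusted p = 0.0176, Nup62 3.18 ± 0.94, adjusted p = 0.0332, Nup214 3.61 ± 0.87, adjusted p = 0.0117 and Xpo7 2.48 ± 0.75, adjusted p = 0.0370. The other deep libraries had 128 to 550.1 CPM on Nup153, 23.9 to 128 CPM on Nup62 and 11.4 to 176 CPM on Nup214. In the deep fit 9 members were higher with SRSF3 and 2 lower, where 25.3% and 9.92% of 6029 genes were. The others that rose were Nup210, Nup188, Nup54, Rae1 and Xpo6, while Nup85 (-0.89 ± 0.24) and Thoc1 (-1.43 ± 0.49) fell. SRSF1 and SRSF4 have 1 deep library each, which the fit takes to vary like the other groups.

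By part, 11 of 57 member parts were higher with SRSF3, where 16.4% of all parts were, and 0 lower, where 4.25% were. They were the CDS of Nup153, Nup62, Nup214, Nup210 and Xpo7, the 3′ UTR of Nup155, Nup160, Thoc2 and Xpo6, and introns of Nup153 and Nup210. The CDS stretch of Nup62 held 188 to 235 CPM with SRSF3, against 0 to 97 CPM with the other SR proteins, and that in exon 18 of Nup153 held 125 to 152 CPM, against 0 to 54.7 CPM. The 3′ UTR of Nup160, a Y complex gene, had 58.6, 52.5 and 54.9 CPM with SRSF3, against 0 to 25.3 CPM (median 0) (log2 difference 3.35 ± 0.72, adjusted p = 0.00152), with no overlap. That of Nup155, an inner ring gene, had 75.7, 77.1 and 98.5 CPM, against 0 to 124 CPM (median 4.27) (log2 difference 3.22 ± 0.69, adjusted p = 0.00138), with overlap. With the CDS of Nup62 (3.43 ± 0.76, adjusted p = 0.00192), these were the 3 of 39 calls over genes and parts that held whichever library was left out. Of these 3, the 3′ UTR of Nup155 was lost in 2 of 8 other settings and the CDS of Nup62 in 1 of 8. The SRSF3 calls on the CDS of Nup210 and the 3′ UTR of Thoc2 were lost in 15 and 19 of 31 fits without 1 library.

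**Figure D5:**
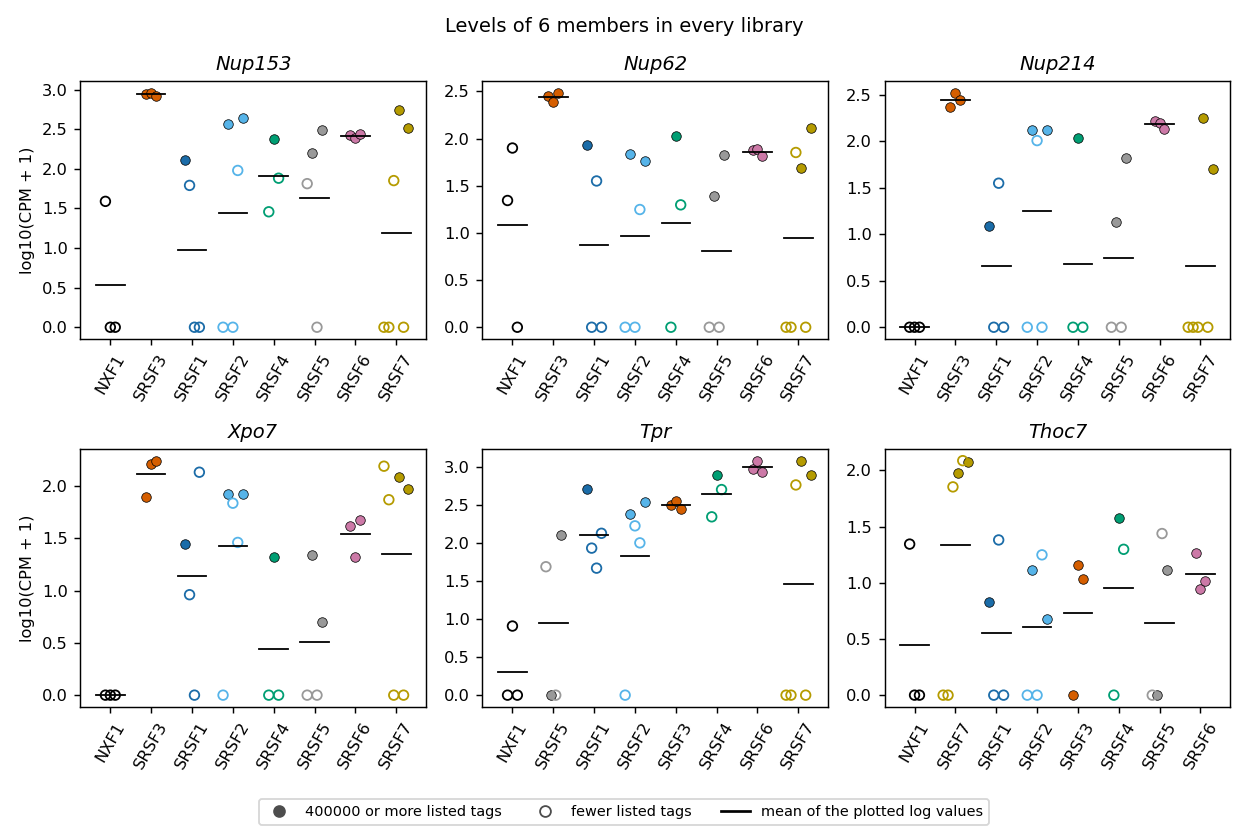
Level of 6 members in every library (log10(CPM + 1)), by protein, with filled points for libraries of at least 400000 listed tags, open points for the rest, and lines for the mean of the plotted values. The 3 SRSF3 libraries lie above all others for Nup153, Nup62 and Nup214, Tpr is at 0 in 2 of 4 SRSF5 and 2 of 3 NXF1 libraries, and Thoc7 is highest in the 4 SRSF7 libraries that list it.

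With SRSF6, Tpr (chr1:152239968-152297062) had its highest mean. It had 958, 1222 and 873 CPM, against 0 to 1193 CPM (median 168) in the libraries of the other 6 proteins, of which SRSF7 replicate 4 lay above SRSF6 replicates 1 and 3, and it was not called (log2 difference 2.95 ± 1.06, adjusted p = 0.0840, limma). SRSF6 gave 0 calls on member genes, where 4.21% of all genes were higher and 0.697% lower. Without adjustment, 6 members were higher at p under 0.05 and 0 lower, and limma-trend called 0. In the deep libraries Tpr rose with SRSF6 (1.91 ± 0.36, adjusted p = 0.00141), as did Ranbp2, Thoc2 and Nup50, where 20% of genes did and 1.94% fell. The stretch over exons 42 and 43 of Tpr held 102 to 122 CPM with SRSF6 and 147 to 182 CPM with SRSF4, and none with NXF1.

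By part, 2 of 57 were higher with SRSF6, where 9.86% were, and 1 lower, where 1.37% were. The CDS of Thoc2 had 244, 268 and 313 CPM with SRSF6, against 0 to 214 CPM (median 22.3) with the others (log2 difference 3.01 ± 0.92, adjusted p = 0.0307), with no overlap, and its leading stretch in exon 31 (chrX:39167390-39167795) held 77.5 to 122 CPM, against 0 to 35.7 CPM. The CDS of Nup50, a basket protein, had 54.7, 76.2 and 43 CPM, against 0 to 59.9 CPM (median 0) (log2 difference 2.38 ± 0.72, adjusted p = 0.0302), with overlap. The other exons of Xpo1, those outside its representative coding and UTR parts, fell with SRSF6 (-2.29 ± 0.77, adjusted p = 0.0487). That call was lost in 23 of 31 fits without 1 library and in 5 of 7 other settings, with -0.20 (adjusted p = 0.922) in limma-trend. Those on the CDS of Thoc2 and of Nup50 were lost without any 1 SRSF6 library. They were also lost in 4 and 5 of 7 other settings in turn.

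With SRSF5, Tpr fell. It had 48.1, 0, 0 and 126 CPM in the SRSF5 libraries, against 0 to 1222 CPM (median 302) in the 24 libraries of the other 6, with a log2 difference of -4.29 ± 1.07, adjusted p = 0.00899 (SE, limma). SRSF5 replicate 2 listed no Tpr tag among 627982 tags, where the 12 deep libraries of the other proteins had 242 to 1222 CPM. The groups overlapped over all libraries, and did not among the deep ones. The deep libraries gave -5.98 ± 1.22, adjusted p = 0.00569, and in them 10 members were lower with SRSF5 and none higher, where 24% of genes were lower and 3.45% higher. Without SRSF5 replicate 2 the call on Tpr was lost (adjusted p = 0.0895), as was every other SRSF5 call on a member gene, and it was lost with trimmed-mean scaling, with limma-trend and at matched depth.

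In all, 5 of 33 members were lower with SRSF5, where 20.5% of all genes were, and 0 higher, where 1.64% were, and the median log2 difference was -1.31 over the members and -1.28 over all genes. The share of members called was below that background, and the direction moved with the scaling: trimmed-mean scaling called 130 genes higher and 85 lower with SRSF5, against 99 and 1238 on listed tags, and no member. Nup37, a Y complex gene, had 0, 0, 0 and 3.99 CPM with SRSF5, against 0 to 101 CPM (median 17.4) (log2 difference -2.85 ± 0.89, adjusted p = 0.0228), and Thoc5 had 24, 0, 0 and 23.9 CPM, against 0 to 153 CPM (median 44.9) (log2 difference -2.49 ± 0.90, adjusted p = 0.0426). Xpo7 had 0, 20.7, 0 and 3.99 CPM with SRSF5, against 0 to 173 CPM (median 43.1) (log2 difference -2.0 ± 0.71, adjusted p = 0.0417), and Nup210l fell too (-2.29 ± 0.77, adjusted p = 0.0325). All these groups overlapped. Of 9 other settings, the call on Xpo7 was lost in 8, that on Nup210l in 7, that on Thoc5 in 6 and that on Nup37 in 3. By part, none was higher, where 1.65% were, and 11 of 57 were lower, where 19.8% were: CDS, intron and other exons of Tpr, the CDS of Nup50, Nup93, Thoc4 and Xpo7, the 3′ UTR of Nup155 and Thoc2, and introns of Nup210l and Xpo4. The calls on the 3′ UTR of Thoc2 and the CDS of Xpo7 were lost in 8 of 8 other settings. No SRSF5 library listed a tag in the introns of Tpr or Xpo4. The member with the highest SRSF5 mean was Nup85, with 0, 492, 145 and 628 CPM.

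With SRSF7, Thoc7 (chr14:14781528-14793739), a small THO subunit gene, rose. It had 0, 0, 70.2, 94.2, 121 and 118 CPM in the SRSF7 libraries, against 0 to 36.3 CPM (median 8.62) in the other 22 libraries. The 4 SRSF7 libraries that listed it lay above all the others, and the 2 at 0 had 13038 and 54936 tags, while replicates 3 and 5 rest on 3 and 2 Thoc7 tags. The log2 difference was 2.71 ± 0.70, adjusted p = 0.0254 (SE, limma), the 1 call on 33 members, where 2.52% of genes were higher and 0.448% lower, and the CDS of Thoc7 was the 1 call on 57 parts (2.53 ± 0.67, adjusted p = 0.0307), where 2.49% were higher and 0.454% lower. In the deep libraries Thoc7 gave 3.58 ± 0.51, adjusted p = 0.000380, and 10 members were higher with SRSF7, where 23.3% of genes were, and none lower, where 2.89% were. The calls on Thoc7 were lost without SRSF7 replicate 3, 4 or 6, with trimmed-mean scaling, with the replicate block and with limma-trend. The call on its CDS was also lost with no CPM minimum and among the libraries of the later run year. At matched depth the gene and its CDS both changed sign, and neither was called. Tpr was 1 of the 10 (1.92 ± 0.40, adjusted p = 0.00386), while among the libraries of 50000 to 250000 tags, where SRSF7 has replicate 2 alone with no Tpr tag, it was lower with SRSF7 (-3.16 ± 1.01, adjusted p = 0.0455).

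With SRSF1 the calls fell on introns. Nup210l (chr3:89908054-90015939), a paralog of Nup210, had 99.5, 175, 80.5 and 0 CPM with SRSF1, against 0 to 125 CPM (median 8.81) (log2 difference 2.40 ± 0.69, adjusted p = 0.0474), with overlap. The call was lost in 19 of 31 fits without 1 library, any 1 SRSF1 library among them, and in 7 of 10 other settings, with a log2 difference of 1.5 among the libraries run in 2014. It was the 1 call on 33 members, where 1.14% of genes were higher and 1.43% lower. Of its 780 tags, 459 lay in a spot of 55 nt in an intron (chr3:89930961-89931015), tagged in 20 libraries, and its exons had only 0.0197 CPM per kb. The small RNA gene SNORA41 is annotated on the same strand within Nup210l, and no exon overlap was found for the spot. By part, the intron of Nup210l was higher (2.43 ± 0.69, adjusted p = 0.0392), where 1.39% of parts were, and the intron of Nup85 lower (-4.10 ± 1.11, adjusted p = 0.0315), where 2.5% were, with no tag in any SRSF1 library, against 0 to 189 CPM in the others.

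SRSF2 and SRSF4 gave 0 calls on members by gene or part with limma and with limma-trend. For SRSF2, 0.166% of genes were higher and 0.299% lower, with 1 member lower at an unadjusted p under 0.05. For SRSF4, 0.381% and 0.0332% were, with 3 members lower at that level. By part, 0.261% and 1.03% of all parts were called for SRSF2 and 1.14% and 0.192% for SRSF4, and 3 and 2 member parts passed unadjusted. In the deep libraries, where SRSF2 has only replicates 2 and 5, whose headers name SRSF1, 4 members were higher with SRSF2 (Nup85, Nup133, Nup188 and Ranbp2) and none lower, where 10.9% and 3.02% of genes were, and 9 parts were higher, where 12.1% were and 3.73% were lower. With SRSF4 no member was called there, where 2.82% of genes were higher and 0.0498% lower, and 2 parts were higher (the 3′ UTR of Thoc4 and other exons of Tpr), where 6.11% were and 0.275% were lower. The member with the highest SRSF4 mean was Tpr, with 222, 799.6 and 508 CPM, and that of SRSF2 was Xpo1, with 279.8, 854, 67.4, 629 and 931 CPM.

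The SR proteins were also compared among the 8 libraries of 50000 to 250000 tags, again a fit added after seeing the data, with 2 libraries each of SRSF1, SRSF4 and SRSF5, 1 each of SRSF2 and SRSF7, which are taken to vary like the others, and none of SRSF3 or SRSF6, and with the NXF1 libraries in the same fit. There 6 member genes were called of 33 tested for each protein. Higher were Tpr with SRSF4 (3.45 ± 0.85, adjusted p = 0.00423) and Nup210l with SRSF1 (3.95 ± 0.96, adjusted p = 0.00472), where 1.97% and 1.26% of 5940 genes were. Lower were Nup98 with SRSF2 (-3.11 ± 0.98, adjusted p = 0.0461), Thoc4 (-3.26 ± 0.93, adjusted p = 0.00908) and Rae1 (-2.73 ± 0.97, adjusted p = 0.0483) with SRSF5, and Tpr with SRSF7, where 2.27%, 9.51% and 2.07% of genes were for the 3 proteins. In the other direction no member was called, where 1.13% of genes were lower with SRSF4, 0.589% lower with SRSF1, and 1.06%, 0.892% and 1.89% higher with SRSF2, SRSF5 and SRSF7.

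Over the 7 contrasts, 11 calls were made on member genes (6 higher, 5 lower) and 28 on parts (15 higher, 13 lower). Without the libraries labelled SRSF2 replicates 2 and 5 there were 13 and 29. The count by gene was 4 without SRSF3 replicate 2 or 3, 5 without SRSF5 replicate 2 and 7 without SRSF5 replicate 1, and by part it was 16, 17, 15 and 18 in turn. Scaling to coding-gene tags gave 6 genes higher and 4 lower, and trimmed-mean scaling called 0 genes and 12 parts. Trimmed-mean scaling moved the median log2 difference of all genes by 0.95 for SRSF5, -0.17 for SRSF3, -0.74 for SRSF7 and 0.98 for NXF1. Of the 39 called differences 5 changed sign, each at matched depth and none of them called there, and none did under the other settings tried. The calls with SRSF3 and SRSF6 could not be refit at matched depth, which holds no library of either. Of the calls that could, 13 more were lost there and 2 held.

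Of the other genes of the export and pore machinery, a list outside the rule, 33 were annotated and 26 tested. With SRSF3, Pom121 (log2 difference 4.27 ± 0.77, adjusted p = 0.000582), Nupl1 (2.83 ± 0.75, adjusted p = 0.0130) and Tmem48 (2.83 ± 0.91, adjusted p = 0.0394) were higher, 3 of 26, where 8.54% of all genes were. Shfm1 (-2.31 ± 0.70, adjusted p = 0.0293) was lower, where 2.29% of all genes were. POM121 anchors the pore in the membrane, and NUPL1 (NUP58) lies beside NUP62 in the channel. With SRSF5, Pom121 and Shfm1 were lower, where 20.5% of all genes were, and with SRSF1 Pcid2, a TREX-2 gene, was, where 1.43% were. With NXF1, Rangap1 (-3.98 ± 1.07, adjusted p = 0.0274) and Rcc1 (-3.89 ± 1.01, adjusted p = 0.0217), both of the Ran cycle, were lower, where 2.37% of all genes were. None was called with SRSF2, SRSF4, SRSF6 or SRSF7. The median log2 difference with SRSF3 was 0.93 over the 26, beside 0.80 over all genes.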

How the data were processed

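The submitters' processing notes name CASAVA 1.4 and the build mm9. Which aligner was used is not given in the sources at hand. The deposited values are signed cDNA counts per position, the sign giving the strand, at positions whose local density within 15 nt passed a 0.05 false discovery rate set by 100 permutations. Tags were assigned here to GENCODE vM1 genes and parts on the same strand, and CPM were computed on all listed tags. Because thresholded counts are not plain counts, limma 3.58.1 with voom weights in R 4.3.3 was used, with Benjamini-Hochberg adjustment over all features. A feature was tested at 42.1 CPM (10 tags in the median library of 237488) in 3 or more libraries with a total of 15 tags. The 31 library columns and the summed files were used, and 0 sample columns were left out. The scripts were tested on simulated data with known changes.

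Members, lists and tests were chosen with earlier results of these data known. Full values are given for members called by gene or part, the 10 with the highest mean, the 2 highest of each protein, and stretches among the 3 highest of a protein. Other members have their range. Alternatives were other scalings, limma-trend, no CPM minimum, any-overlap assignment, a replicate block, the libraries run in 2014, leaving out libraries and, chosen after seeing the data, matched depth and deep libraries. Sequences are from the mm9 (NCBIM37) genome. Some members, such as Nup62 with Il4i1, overlap another gene on the same strand, and any-overlap assignment gave the same count of 11 gene calls.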

Additional observations from a re-analysis of the deposited data

Results flagged for a closer look

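Of 11 sets of libraries looked at for a library far from the rest, 1 was flagged. Nup37 had 3.99 CPM in SRSF5 replicate 4 and 0 CPM in the other 3 SRSF5 libraries, so its gap to the nearest library was the whole range and above Dixon's 95% critical value for 4 libraries. With the other 3 tied at 0, any level above 0 gives this result, so the rule cannot tell whether the library is unusual. At that depth 3.99 CPM is a count of 2 tags. The rate of 1 in 20 behind the critical value does not hold for libraries tied at 0.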

How the results depend on the processing

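Between NXF1 and the SR proteins, 0 member genes were called, and 1 (Tpr) was with no CPM minimum, with the replicate block, without SRSF2 replicates 2 and 5 and at matched depth, and 10 among the libraries run in 2014. Leaving out 1 library gave 0 to 1. By part, 0 became 3 in the libraries run in 2014 and 2 at matched depth, and it was 0 whichever library was left out. For the SR proteins, 11 gene calls became 0 with trimmed-mean scaling, 0 with limma-trend, 4 with no CPM minimum, 7 in the libraries run in 2014, 6 at matched depth and 39 in the deep libraries, and 4 to 16 when 1 library was left out. By part, 28 calls became 12 with trimmed-mean scaling, 3 with limma-trend, 10 with no CPM minimum, 18 with the replicate block, 14 in the libraries run in 2014, 8 at matched depth and 70 in the deep libraries, and 15 to 37 when 1 library was left out. The cause of these moves was not tested, and the subsets also hold fewer libraries. The call on the 3′ UTR of Nup160 with SRSF3 was lost in no setting run that holds SRSF3 libraries. At matched depth 5 called log2 differences changed sign: Thoc5 (0.65), the 3′ UTR of Nup155 (0.77) and the CDS of Nup93 (0.30) with SRSF5, and Thoc7 (-0.58) and its CDS (-0.16) with SRSF7.

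Over all genes, the split of higher to lower calls was 168 to 143 for NXF1, 222 to 2 with trimmed-mean scaling and 460 to 55 with coding-gene totals. For SRSF3 it was 515 to 138, 189 to 151 and 440 to 423, and for SRSF5 99 to 1238, 130 to 85 and 320 to 518. Replicate numbers showed no sign of pairing the samples. Deviations of same-numbered libraries of different proteins had a mean correlation of 0.0085 over 91 pairs, 15 of them over 0.1. For differently numbered libraries of different proteins it was 0.00054 over 325 pairs, 50 of them over 0.1. This check reads replicate numbers only. The replicate block gave 10 gene calls for the SR proteins.

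Taken from the authors' summed files, the CDS share of member tags was 78.2% for SRSF1, 62.6% for SRSF3, 74.7% for SRSF6 and 59.9% for NXF1, and the intron share 21.0% for SRSF3 and 13.7% for SRSF6. Depth also limits what can be seen: with 13038 tags a level under 76.7 CPM cannot be listed at all.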
